A study of Mus musculus with 2 samples.

Results

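The genes described here are 10 neighbours of Erbb2 on mouse chromosome 11: Med1, Fbxl20, Cdk12, Ppp1r1b, Stard3, Tcap, Pgap3, Mien1, Grb7 and Ormdl3. They were chosen by symbol, as genes that flank Erbb2 in the stretch syntenic with the human HER2 amplicon, and all 10 have a row among the 31017 genes of the deposited count table. RNA came from untreated TUBO cells, a mouse mammary cancer line grown as a monolayer on plastic and derived from a tumour of a BALB/c mouse carrying an activated rat Her2/neu transgene under a mammary tumour virus promoter. The labels give 1 group with 2 libraries of 35453278 and 34098259 counts, so what was measured is the level of each gene, with no contrast of conditions. The labels do not say that the libraries came from separate cultures, so their spread may be technical.

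ERBB2 is a receptor tyrosine kinase that signals from the cell surface as a dimer with its relatives. In human HER2-positive breast cancer the ERBB2 gene is amplified together with a variable number of flanking genes, and several of these are then overexpressed with it. In tumours of transgenic mice the oncogene is an added rat copy, separate from the mouse Erbb2 gene whose neighbours are described here. The products of the neighbours are unrelated in function: transcription cofactors (Med1, Cdk12), signalling proteins (Grb7, Ppp1r1b, Mien1), lipid and membrane proteins (Stard3, Ormdl3, Pgap3), a ubiquitin ligase subunit (Fbxl20) and a sarcomere protein (Tcap).

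The sequence upstream of the start site was taken from RefSeq (GRCm38.p6), which held a window for 7 of the 10 genes. Windows for Ppp1r1b, Tcap and Grb7 were not used here. The 250 bases upstream are printed for Fbxl20 and Pgap3, the detected neighbours with the lowest levels per length, because their windows hold no annotated exon and differ most in base composition. Capitals mark CpG dinucleotides. The Fbxl20 window is chr11:98149617-98149866 on the minus strand and lies inside the longer gene body of GENCODE M21, and the Pgap3 window is chr11:98400491-98400740 on the minus strand.
Fbxl20: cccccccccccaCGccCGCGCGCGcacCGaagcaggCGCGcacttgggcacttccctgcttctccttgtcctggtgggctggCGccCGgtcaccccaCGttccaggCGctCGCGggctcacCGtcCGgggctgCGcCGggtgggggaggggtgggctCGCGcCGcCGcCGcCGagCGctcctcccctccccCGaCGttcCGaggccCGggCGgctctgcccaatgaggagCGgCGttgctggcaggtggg
Pgap3: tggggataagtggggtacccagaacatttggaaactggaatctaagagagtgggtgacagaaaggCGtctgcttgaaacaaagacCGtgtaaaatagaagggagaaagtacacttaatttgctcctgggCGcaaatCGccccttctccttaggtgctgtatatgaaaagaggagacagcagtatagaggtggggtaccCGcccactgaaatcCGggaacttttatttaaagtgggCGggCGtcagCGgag
The Fbxl20 window held 32 CpG and was 77.6% G or C, whereas the Pgap3 window held 9 CpG and was 48.8% G or C. The ratio of observed to expected CpG was 0.855 for Fbxl20 and 0.649 for Pgap3. For Med1 it was 0.638, for Cdk12 0.749, for Stard3 0.685, for Mien1 0.713 and for Ormdl3 0.840. Annotated exons cover 246 of the 250 bases for Cdk12, 147 for Med1, 123 for Ormdl3, 58 for Mien1 and 47 for Stard3. The values of these windows, of Cdk12 above all, are thus partly those of exon sequence. All 7 windows lay above the median of 0.373 over the 32851 upstream windows of the RefSeq table, with Med1 above 68.7% and Fbxl20 above 85.1% of them. Motifs were searched on both strands of the same 250 bases. The E-box CACGTG was found for Mien1 and in 6.02% of all windows, and the cAMP response element TGACGTCA was found for Ormdl3 and in 1.55% of all windows. Neither ACTTCCGG, a motif of ETS factors (2.88% of all windows), nor TATAAA (12.4%) was found in any of the 7 windows. These matches describe the letters of the windows and are not evidence of binding.

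Of the 10 neighbours 9 were detected at 1 CPM (counts scaled to the library size after TMM normalization) or more in both libraries, and Tcap was not. The same threshold was passed by 37.7% of all genes in the table and by 50.5% of its protein-coding genes. The summed share of the 10 genes was 0.0509% in replicate 1 (0.0502% to 0.0517%, 95% Wilson interval) and 0.0501% in replicate 2 (0.0494% to 0.0509%). Erbb2 alone, given as context, took more, with 0.0682% and 0.0691%. Levels of different genes are compared below only as CPM per kb, which is CPM divided by the length of all annotated exons of the gene in kilobases. The median of log2(CPM per kb + 1) over the 10 genes was 3.36 ± 0.08 (SD, n = 2), beside 3.17 over 11004 detected protein-coding genes and 0.51 over all 21782 protein-coding genes.

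Both transcription cofactors were detected. Med1, a Mediator subunit that binds nuclear receptors (chromosome 11, 98152154 to 98193293, minus strand, GRCm38), had 6734 counts in replicate 1 and 6367 in replicate 2. These are 21.6 and 21.4 CPM per kb, the highest level of the 10 genes and above 80.2% of detected protein-coding genes. Cdk12, a kinase that works with cyclin K on the tail of RNA polymerase II (98203059 to 98278504, plus strand), had 4333 and 4139 counts, or 10.4 CPM per kb in both libraries. The mean level of Cdk12 was above 58.5% of detected protein-coding genes. The libraries differed little for both genes, by an SD of 0.0959 CPM per kb for Med1 and 0.0289 for Cdk12. The Cdk12 level depends on its length, since it was 20.6 CPM per kb when divided by the longest transcript (5912 bases) in place of all exons (11730 bases).

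Of 33 Mediator genes 31 were detected, and Med1 was among the highest of them per length. Med19 (30.2 ± 0.54 CPM per kb), Med24 (29.4 ± 0.079) and Med14 (23.2 ± 0.54) stood above it together with the kinase gene Cdk19 (23.0 ± 0.44). Med24 also lies in the region, 267 kb beyond Erbb2. Med10 and Med12l were listed at 0 in both libraries. Of the 50-base windows of Med10 transcripts 88.7% also occur in the annotated gene Gm26819, so its 0 is uncertain. All 9 genes of the list of transcriptional kinases and cyclins were detected. With all exons as length, the partner of Cdk12, Ccnk, was highest at 16.1 ± 0.40 CPM per kb, followed by Cdk9 (14.4 ± 0.21) and Ccnh (12.7 ± 0.25). The longest transcript is 2789 of 3042 exon bases for Ccnk, but 5912 of 11730 for Cdk12. Ranks in this list, including that of Ccnk above Cdk12, thus depend on the length used. Cdk13, the closest relative of Cdk12, stood at 9.19 ± 0.095 CPM per kb, below Cdk12 in both libraries, and Mnat1 was lowest at 5.41 ± 0.18. All 8 genes of the list of DNA damage genes whose expression is linked to CDK12 were detected, from Brca1 (9.60 ± 0.077 CPM per kb) and Chek1 (8.47 ± 0.24) down to Atr (2.54 ± 0.076).

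The 3 signalling genes were all detected. Grb7, an adaptor that binds activated ERBB2 and focal adhesion kinase (98446394 to 98455373, plus strand), had 1137 and 1170 counts, or 9.48 and 10.3 CPM per kb. Mien1, a small prenylated protein linked to cell migration (98437708 to 98438991, minus strand), had 385 and 388 counts, which over an exon length of 747 bases are 14.5 and 15.3 CPM per kb. Ppp1r1b, the inhibitor of protein phosphatase 1 known from dopamine-responsive neurons (98348404 to 98357796, plus strand), had 644 and 556 counts, or 6.17 and 5.60 CPM per kb. Replicate 2 was the higher library for Grb7 and Mien1 and the lower one for Ppp1r1b. In bulk RNA a low level in all cells and a higher level in a few cells cannot be told apart.

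Grb7 was the detected member of its family. Grb10 was listed at 0 in both libraries and Grb14 had 3 counts and 1 count. The general adaptor genes Grb2 (23.3 ± 0.059 CPM per kb) and Shc1 (17.9 ± 0.36) and the focal adhesion kinase gene Ptk2 (12.9 ± 0.012) stood above Grb7 (9.87 ± 0.55). For Ppp1r1b, 6 of the 10 genes of its pathway were detected. The catalytic subunit gene Ppp1ca was at 163 ± 3.3 CPM per kb, the kinase gene Prkaca at 52.4 ± 1.7 and the subunit gene Ppp1cb at 45.3 ± 0.45. The other members of the inhibitor family, Ppp1r1a and Ppp1r1c, and the dopamine receptor genes Drd1 and Drd2 were listed at 0 in both libraries. All 7 genes of the list on prenylation and Mien1 were detected. Fnta (17.1 ± 0.27 CPM per kb), the selenoprotein gene Selenow, a structural relative of Mien1 (16.8 ± 1.0), and the protease gene Rce1 (15.5 ± 0.72) were above Mien1 (14.9 ± 0.61), and Pggt1b was lowest at 3.49 ± 0.13.

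The lipid and membrane genes spanned a wide range. Stard3, a sterol transfer protein of late endosomes (98358368 to 98381112, plus strand), had 2275 and 2013 counts, or 17.9 and 16.7 CPM per kb, and was second to Med1. Ormdl3, an inhibitor of serine palmitoyltransferase in the endoplasmic reticulum (98581256 to 98587368, minus strand), had 645 and 669 counts, or 8.29 and 9.03 CPM per kb. Pgap3, which remodels the lipid of GPI anchors (98388677 to 98400490, minus strand), had 293 and 230 counts, or 2.53 and 2.09 CPM per kb, above only 18.1% of detected protein-coding genes. With the longest transcript as length (2170 bases in place of 3557), Stard3 was at 28.4 CPM per kb and passed Med1 (23.5).

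All 10 genes of the sterol transfer list were detected. Vapa, the membrane anchor to which STARD3 tethers (44.0 ± 0.028 CPM per kb), and the lysosomal sterol carrier gene Npc2 (38.7 ± 0.29) stood above Stard3 (17.3 ± 0.89). Its nearest relative Stard3nl was at 2.34 and 3.06 CPM per kb, and the steroidogenic gene Star was lowest at 1.33 ± 0.31. All 3 ORMDL genes were detected, Ormdl2 at 10.3 ± 0.083 CPM per kb, Ormdl3 at 8.66 ± 0.53 and Ormdl1 at 4.30 ± 0.095. Ormdl2 shares 60.6% of its 50-base transcript windows with the overlapping gene Dnajc14, so its rank above Ormdl3 is uncertain. In that list 9 of 11 genes were detected, led by the ceramide synthase gene Cers2 (117 ± 3.5 CPM per kb), Degs1 (45.6 ± 0.97) and Sptssa (32.1 ± 0.77), and Sptlc3 and Sptssb were listed at 0. All 11 measured GPI anchor genes were detected. The transamidase genes Pigt (38.7 ± 1.3 CPM per kb), Pigs (23.5 ± 0.57) and Gpaa1 (20.3 ± 0.27) were highest, Pgap2, which acts in the same remodelling, was at 9.19 ± 0.43, and Pgap1 was lowest at 0.561 ± 0.011.

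Fbxl20 and Tcap completed the range at its lower end. Fbxl20, a substrate receptor of SCF ubiquitin ligases (98082556 to 98150403, minus strand), had 1604 and 1552 counts. It has the longest exon sequence of the 10 genes, 12106 bases, and its level was 3.72 and 3.78 CPM per kb. The other 5 genes of its list were detected, with the core subunit genes Skp1a (141 ± 7.8 CPM per kb), Cul1 (44.7 ± 1.8) and Rbx1 (19.5 ± 0.72) highest and its relative Fbxl2 lowest (0.321 ± 0.043). Tcap, the titin cap of the muscle Z-disc (98383811 to 98384953, plus strand), had 11 and 8 counts, or 0.309 CPM (95% exact Poisson interval 0.154 to 0.552) and 0.236 CPM (0.102 to 0.465). These intervals cover counting error only. Of the 7 other Z-disc genes Ttn alone passed 1 CPM in both libraries, with 69 and 77 counts, but at 0.018 ± 0.0020 CPM per kb it was below Tcap. Ldb3 had 9 and 7 counts, and Actn2, Myoz2 and Myot were listed at 0.

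**Figure D1:**
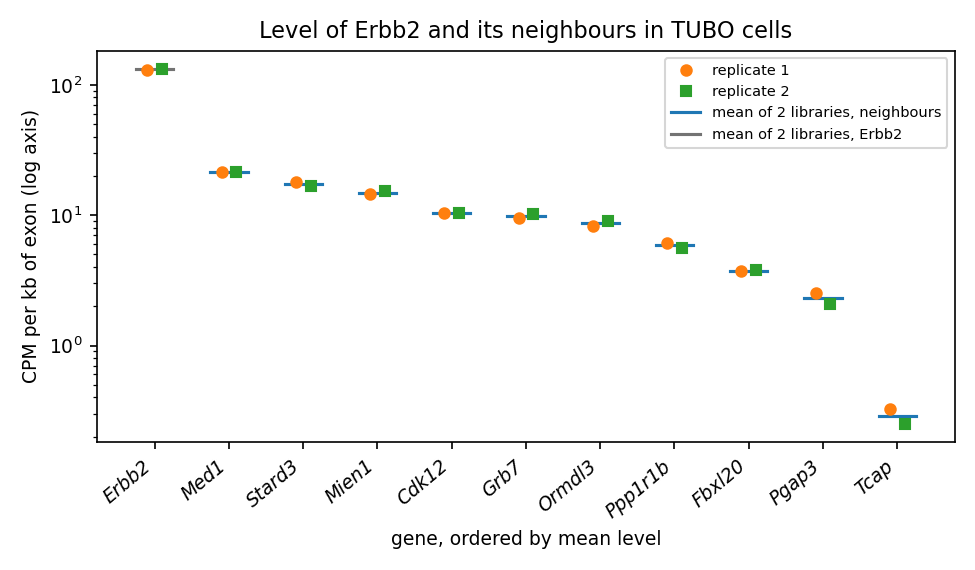
Level of Erbb2 and its 10 neighbours in CPM per kb of exon on a log axis, with replicate 1 as circles, replicate 2 as squares and a line at the mean of both. The neighbours run from Med1 at 21.5 CPM per kb to Tcap at 0.287, and all lie below Erbb2 at 132.

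Ordered by mean CPM per kb the genes were Med1, Stard3, Mien1, Cdk12, Grb7, Ormdl3, Ppp1r1b, Fbxl20, Pgap3 and Tcap. In each of the 9 neighbouring pairs both library values of the higher gene exceeded both values of the lower one. The closest pair was Cdk12 and Grb7, whose ratio was 1.09 in replicate 1 and 1.01 in replicate 2. The counting intervals of Cdk12 and Grb7 and those of Stard3 and Mien1 overlapped in replicate 2. Those of Grb7 and Ormdl3 overlapped in both libraries. An overlap of separate intervals is not a test of a difference, and differences between genes were not tested. The largest step was from Pgap3 to Tcap, at 8.08 ± 0.44 fold. With the longest transcript as length, Stard3 changed places with Med1 and Cdk12 with Mien1, and Ormdl3 and Ppp1r1b overlapped.

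**Figure D2:**
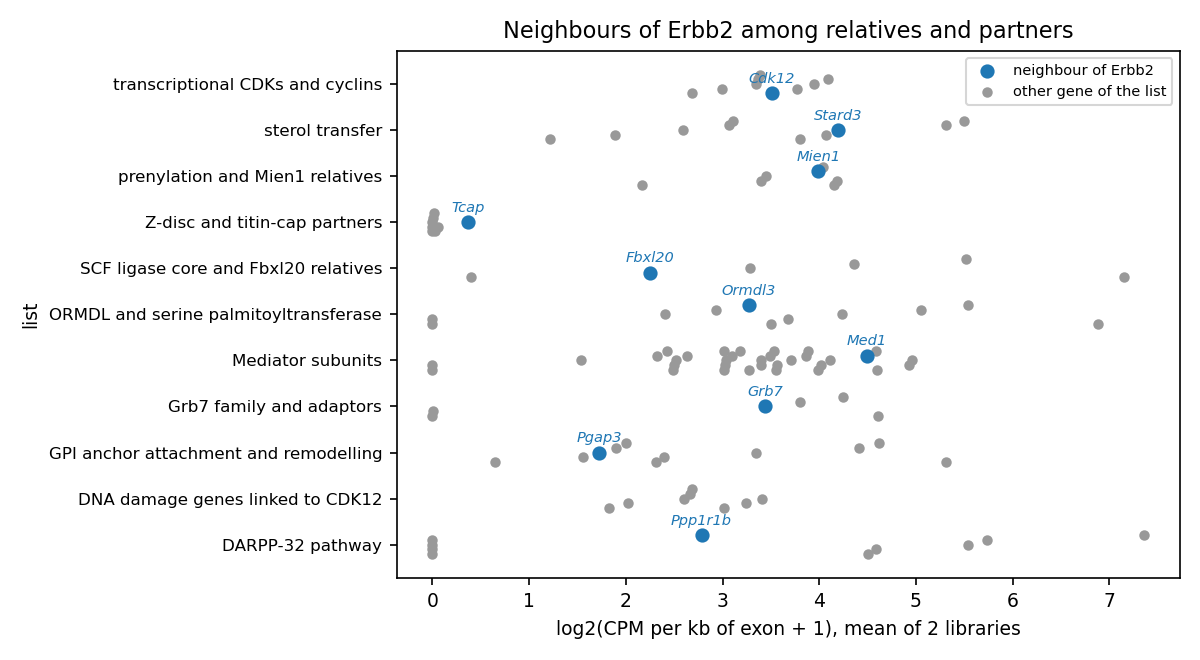
Level of each gene on the lists of relatives and partners, as log2(CPM per kb of exon + 1) averaged over 2 libraries, 1 line per list; large points are neighbours of Erbb2 and small points are the other genes. Med1 and Stard3 sit in the upper part of their lists, Pgap3 in the lower part, and Tcap is the highest of a list that lies near 0.

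Erbb2 itself (98412470 to 98437716, plus strand) had 24164 and 23575 counts, or 130 and 133 CPM per kb, above 98.1% of detected protein-coding genes. Every neighbour was far lower. Erbb2 was 6.12 ± 0.14 times as abundant per length as Med1, 7.62 ± 0.53 times Stard3 and 8.86 ± 0.20 times Mien1. Mien1 adjoins Erbb2 on its downstream side and Grb7, with a ratio of 13.4 ± 0.50, follows. For Pgap3, the next gene on the upstream side, the ratio was 57.7 ± 8.8. No row of the table stands for the rat gene, so counts from the endogenous gene and from the transgene cannot be told apart in Erbb2, and these ratios may not be ratios to the endogenous gene alone.

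Between the outermost members, Fbxl20 and Ormdl3, lie 505 kb of chromosome 11 with 4 further protein-coding genes besides Erbb2. These are the neuronal factor gene Neurod2 and the lymphocyte factor gene Ikzf3, both with no count, the adrenaline synthesis gene Pnmt with 1 and 4 counts, and the sperm gene Zpbp2 with 1 count in each library. On this stretch 9 of 10 listed genes and 0 of these 4 were thus at 1 CPM or more. The list was drawn up with earlier results of these data known. This contrast, and those with the flanking genes below, are therefore descriptions of the list.

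Within 500 kb of Erbb2 there were 24 protein-coding genes other than Erbb2 and the 10 neighbours, and 14 (58.3%) were detected. The detected ones were the outer genes. All 9 genes whose whole bodies lie within 250 kb were below 1 CPM, with at most 4 counts. Besides the 4 just named they were Lrrc3c and Gsdma2, with no count, and Gm12355, Gsdma3 and Gsdma, with 0 to 3 counts in a library; Gsdma genes encode gasdermins. Of the outer genes only Plxdc1 was below 1 CPM, with 1 count in each library.

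The 14 detected genes lay from 245 to 470 kb away, measured to their nearest edge; the body of Psmd3, the nearest, crosses the 250 kb line. Highest was Rpl19, a ribosomal protein gene, at 356 and 359 CPM per kb, followed by Csf3, the granulocyte colony-stimulating factor gene, at 131 and 134. The proteasome gene Psmd3 (49.6 and 45.0 CPM per kb), Stac2 (48.4 and 47.7) and Med24 (29.4 and 29.3) also exceeded Med1 in both libraries. Csf3 was thus close to Erbb2 per length, and all 10 neighbours were below it. Msl1 (20.3 and 19.9 CPM per kb), Casc3 (17.3 and 16.1) and the clock repressor gene Nr1d1 (13.3 and 12.9) lay in the range of the upper neighbours, and the replication licensing gene Cdc6 was at 8.85 and 9.10. The thyroid hormone receptor gene Thra (5.29 and 5.07), Wipf2 (5.25 and 5.22), Cacnb1 (2.60 and 2.96), Rapgefl1 (0.761 and 0.743) and Arl5c (0.528 and 0.669) were lower. The median of log2(CPM per kb + 1) was 3.36 ± 0.08 over the 10 neighbours and 1.36 ± 0.04 over all 24 flanking genes. Over detected genes only the order was the other way round, with 3.44 ± 0.07 for 9 neighbours and 3.98 ± 0.05 for these 14 genes.

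**Figure D3:**
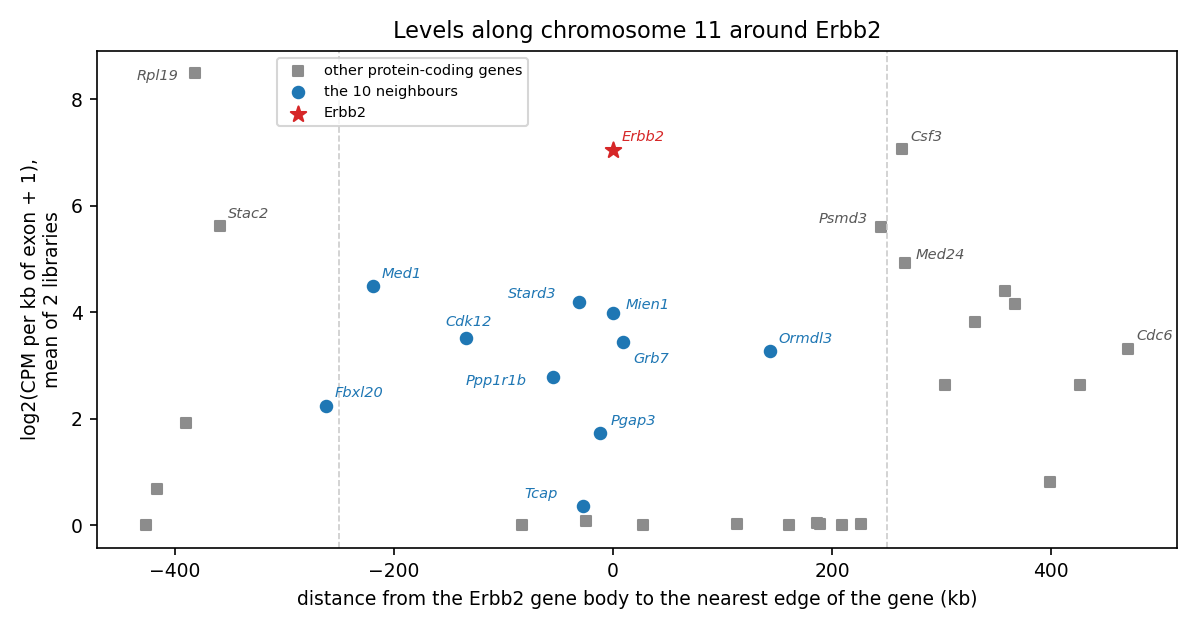
Level of protein-coding genes around Erbb2 as log2(CPM per kb of exon + 1), mean of 2 libraries, against the distance in kb from the Erbb2 gene body to the nearest edge of each gene; negative distances lie before Erbb2 and dashed lines mark 250 kb. Of the neighbours 9 of 10 stand above 9 other genes near 0 that lie wholly within the dashed lines, and Rpl19 and Csf3 are the highest of the outer genes.

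The libraries were also compared with each other. Each gene kept by the expression filter was compared by an exact binomial test (two-sided, counting error only), with Benjamini-Hochberg adjustment over 13336 genes. None of the 9 neighbours tested was called at an adjusted p under 0.05, beside 8.13% of all genes tested, so the count of 0 is not a result about these genes, and Tcap did not pass the filter. At an unadjusted p under 0.05 there were 2, Pgap3 and Stard3. The exact test of edgeR with a common dispersion called 0, beside 0.142% (19) of all genes tested, and had 0 unadjusted. The share of all genes at an unadjusted p under 0.05 is not given here, so neither unadjusted count is a result about the neighbours. The edgeR dispersion was estimated from these same 2 libraries taken as replicates. Few calls therefore follow from how that test was set up. The log2 ratio of replicate 2 to replicate 1 was lowest for Pgap3 at -0.28 (95% exact interval -0.53 to -0.02, exact binomial adjusted p = 0.182). For Stard3 it was -0.10 (-0.19 to -0.02, exact binomial adjusted p = 0.137). It was highest for Ormdl3 at 0.12 (-0.03 to 0.28) and Grb7 at 0.11 (-0.01 to 0.23). The interval was narrowest for Med1, from -0.06 to 0.04. Of the 9 ratios 5 were above 0 and 4 below, with a median of 0.0057, beside -0.0017 over all tested genes.

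**Figure D4:**
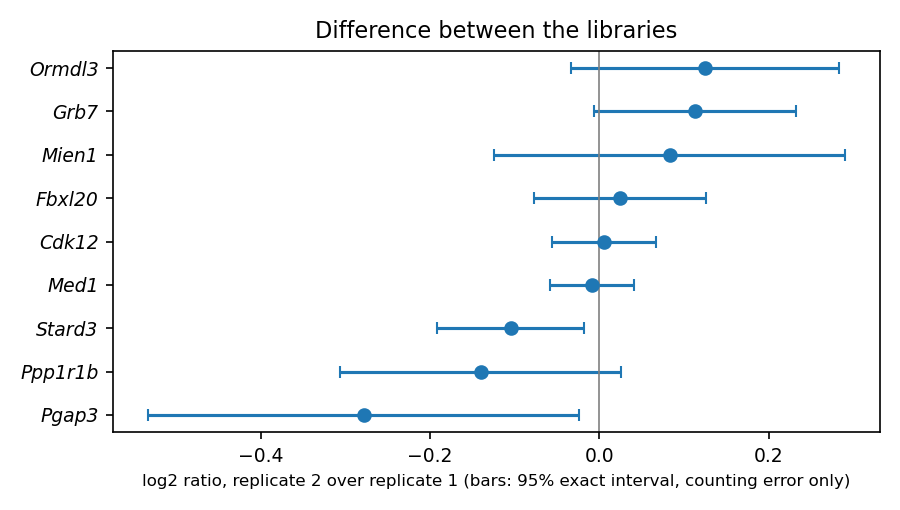
Log2 ratio of replicate 2 to replicate 1 for the 9 neighbours that passed the expression filter, with bars for the 95% exact interval, which covers counting error only. The intervals of Pgap3 and Stard3 lie below 0 and the other 7 include 0.

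Among the relatives and partners the exact binomial test called 9 of 93 tested genes (9.68%), near the share over all genes. The exact test of edgeR, limited as described above, called 0. The sterol transfer genes Stard3nl (0.39) and Star (0.48) were called higher in replicate 2, as were Med13 (0.17), Med7 (0.29), Ccnt2 (0.13), Skp1a (0.11) and Ppp1cc (0.12), where values are log2 ratios. Cul1 (-0.08) and Cers2 (-0.06) were called lower. Of the 14 flanking genes tested, 1 was called, Psmd3, which was lower in replicate 2 (-0.14). Beside these, the exact binomial test called 3.67% of all tested genes higher in replicate 2 and 4.46% lower. The exact test of edgeR called 0.142% of them in either direction. The lists on GPI anchors, prenylation, Grb7 adaptors, Z-disc genes and DNA damage held 0 called genes of 11, 7, 4, 1 and 8 tested.

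Some counts of the neighbours may be shared with overlapping genes, since whether the counting used strand is not stated in the sources used here. The antisense gene Gm12352, with 26 and 27 counts, covers 37.6% of the exon bases of Mien1, and the last 9 bases of Erbb2 overlap those of Mien1 on the other strand. For Ppp1r1b 15.7% of the exon bases lie in an antisense transcript, 1700003D09Rik. For Fbxl20 5.57% lie in Gm11632 on the same strand, an overlap that counting by strand would not separate. Neither of these overlapping genes has a row in the table. The largest share of 50-base transcript windows found in other genes was 16.3%, for Mien1, and it was 0 for Stard3, Tcap, Pgap3 and Grb7.

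The labelled cell type was checked with marker genes. All 6 epithelial markers on the list were detected, with a summed level of 4778 CPM in replicate 1 and 4615 in replicate 2. The exact binomial test called 4 of these (Krt8, Cldn4, Cdh1 and Krt7) lower in replicate 2, beside 4.46% of all genes tested. Their log2 ratios were small, from -0.06 for Krt8 to -0.09 for Cldn4, and the test covers counting error only. In detection, keratin genes off the list went both ways, with Krt19 at 2 and 0 counts and Krt23 at 1378 and 1287. None of the 5 fibroblast, 4 endothelial, 5 leukocyte, 5 skeletal muscle and 4 neuronal markers was detected in both libraries. The fibroblast marker Col1a1 had 37 and 18 counts and passed 1 CPM in replicate 1 only, while the other 4 fibroblast markers had no count. The leukocyte marker Csf1r had 18 and 15 counts. The summed level of the muscle markers was 0.365 and 0.295 CPM with Des at 0, and that of the neuronal markers 0.0281 and 0.0295 CPM with Snap25 and Tubb3 at 0. The part of such cells in the counts of Tcap and Ppp1r1b was not tested. The ribosomal RNA-like genes Gm26917 and Gm42418 took 9.84% and 11.1% of the counts.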

How the data were processed

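RNA from TUBO cells was extracted on columns, treated with DNase and made into stranded mRNA libraries, per the labels' protocols. The authors deposited 1 table of raw counts per gene symbol with 1 column per library. The build mm10 and the tools STAR 2.7.9a, featureCounts, FastQC 0.11.9, Cell Ranger 3.0.0 and R 4.1.1 are listed, without role or order, per the submitters' processing notes. The annotation release and the treatment of multiply matching reads are not stated in the sources used here, so counts of overlapping genes are uncertain.

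CPM were computed in edgeR 4.0.16 under R 4.3.3 (TMM factors 1.005 and 0.995) and divided by the union of exons in GENCODE M21 (GRCm38), to which 98.3% of symbols had a single match. Other steps used Python 3.11.15. Values are mean ± SD over 2 libraries. Libraries were compared after filterByExpr with an exact binomial test, tested beforehand on simulated data. The simulation held counting noise only, so it does not cover further variation between libraries. Flanking genes are protein-coding genes with bodies within 500 kb of Erbb2. Transcripts were compared by 50-base windows.

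The members, 11 lists of relatives and the marker lists were chosen with earlier results of these data known. Named genes are the members, the flanking genes, and in each list the closest relatives, the 3 highest genes and the lowest. The values of 1 gene that this rule names are not reported here. Genes called between the libraries, genes at 0, Cdk19, Krt19, Krt23, Col1a1 and Csf1r, all outside this rule, were named after their values were seen. Alternatives were DESeq2 1.42.0 size factors, library totals, upper-quartile factors, totals without Gm26917 and Gm42418, other lengths, windows, minimums and pseudocounts, and each library left out.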

Additional observations from a re-analysis of the deposited data

How the results depend on the processing

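No paired analysis was possible because the labels give a single group. The counts of 9 detected and 0 called neighbours were the same under every alternative run for them. The median log2 level of the neighbours, 3.36, was 3.61 with the longest transcript as length, 4.70 without division by length, 3.44 over detected members only and 3.22 with a pseudocount of 0.1, and ran from 3.30 to 3.41 when a library was left out. Of the flanking genes, counted by whole gene bodies, 0 were detected within 250 kb, 31 within 1 Mb and 52 within 2 Mb, in place of 14 within 500 kb. Their median log2 level, 1.36, was 0.0074 within 250 kb, 0.83 within 1 Mb, 0.021 within 2 Mb and 3.08 without division by length. Those windows hold other genes, 9, 54 and 141 in place of 24. Between the libraries 1 ratio changed sign: that of Cdk12, not called, was -0.0099 with library totals. Single levels moved by at most 13.4% when a library was left out, rose by 11.7% without Gm26917 and Gm42418 in the totals, and rose by up to 98.4% with the longest transcript as length. Leaving out a library gives no comparison between libraries. Depth limits Tcap, with at most 11 counts. With only 2 libraries each SD is itself imprecise.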

Other observations

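Farther from Erbb2 on chromosome 11, the range between 500 kb and 2 Mb held genes with high counts and genes without counts. Genes in this paragraph were chosen after their values were seen. Top2a, the topoisomerase gene that is often co-amplified with human ERBB2, lies 0.56 Mb away and was at 70.3 CPM per kb, with 22260 and 21799 counts. On the other side the ribosomal protein gene Rpl23 (0.63 Mb) was at 193 CPM per kb, the proteasome gene Psmb3 (0.70 Mb) at 48.5, the actin-binding gene Lasp1 (0.57 Mb) at 46.3 and the chromatin gene Mllt6 (0.73 Mb) at 19.2. Of 50 keratin and keratin-associated genes in this range, the nearest 0.80 Mb away, 38 had no count. Krt23 (24.5 CPM per kb) and Krt10 (1.49 CPM per kb) were the 2 detected among them.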
